A study of Mus musculus with 30 samples.

Results

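The genes described here encode proteins of the mitochondrial ribosome. They were chosen by symbol: every array row that named exactly 1 gene whose symbol is Mrpl or Mrps followed by a digit was taken, and pseudogenes were left out. This gave 77 of the 19938 genes tested, from 85 rows. By symbol 48 belong to the large subunit (Mrpl) and 29 to the small subunit (Mrps), although the products of Mrps18a and Mrps30 are placed in the large subunit in structures of the mammalian particle. A single further gene of the rule, Mrpl53, was present only in a row that names several genes and was not used. For the 8 genes with 2 rows (Mrpl23, Mrpl27, Mrpl41, Mrpl47, Mrpl51, Mrps5, Mrps33 and Mrps36) the row whose mean was highest was taken.

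The mitochondrial ribosome translates the few messenger RNAs that mitochondria make from their own DNA, all of which encode subunits of the respiratory chain complexes and the ATP synthase. Its ribosomal RNAs come from mitochondrial DNA, but all of its proteins are encoded in the nucleus, made in the cytosol and imported. The small subunit reads the messenger RNA and the large subunit joins the amino acids and holds the growing chain near the inner membrane. Activation of naive T cells is known to be accompanied by growth of the mitochondrial compartment.

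The cells were naive (TN) or memory (TMem) CD8+ T cells from spleens of C57BL/6 mice that carry the Pmel-1 T cell receptor transgene, described in the labels as female adults aged 6 to 12 weeks. All groups therefore share the same transgenic receptor. TN cells came from Ly5.1 and TMem cells from Ly5.2 mice, a congenic marker by which the cells can be told apart after culture. TMem cells were made in vitro, so they model memory cells and were not taken from an immunized mouse. TN and TMem cells were each measured without stimulation (0 h) and after 18 h and 96 h with IL-2 and antibodies against CD3 and CD28, cultured by themselves (alone). Both were also measured at 18 h and 96 h after culture together (mix), and sorted apart before RNA was taken. This makes 10 groups of 3 arrays, which the submitters describe as biological repeats. The design asks how each cell type responds to stimulation and how it responds in the company of the other.

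Values are log2 levels, so a difference of 1 is a doubling. No group mean of a member lay below the mean lower quartile of its arrays, the bound taken here for near background, so all 77 members could be followed in all 10 groups. CD8 T cell markers (6 of 6 matched) were present in every group, with summed levels from 13.66 to 14.89 and 0 of 6 near background. Replicate 1 of TN alone at 0 h stood apart in the members: their mean difference from each gene's own mean over the groups was 0.42 there and -0.15 and -0.06 in the other replicates. The median SD of the members in that group was 0.31, against 0.15 over all genes. Replicate 1 of TN mix at 96 h was low in the same measure (-0.30, against 0.04 and -0.11). Named results that lose their call or move by over 1.5 times without either array are given with and without it. Y-linked genes (3 of 4 matched) had summed levels of 6.11 to 6.57 in TN alone at 0 h and 6.26 to 6.45 in TN alone at 96 h, near background for 3 of 3 genes. They were at 9.18 to 9.33 in both TN groups at 18 h, 8.71 to 9.09 in TN mix at 96 h and 10.06 to 10.65 in the TMem groups. The cells of these groups thus differed in Y-linked transcripts although all are labelled female, and what this has to do with the members was not tested. Lists of markers of other cells are given beside the results they move with. In every group Ms4a1 and Cd79a of the B cell and antigen presentation list (9 of 10 matched), Adgre1 and S100a8 of the myeloid list (8 of 8) and Fcer1a and Ms4a2 of the mast cell and basophil list (6 of 6) were near background. The other genes of these lists lay above that bound in some or all groups. By group 2 or 3 of 9, 2 to 5 of 8 and 2 to 4 of 6 genes of these lists were near background. Of the CD4 T cell markers (4 of 4 matched) 0 were near background in any group.

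The DNA in front of the members is shown here because many of them start back to back with another gene. Sequences upstream of the start were found for 68 of the 77 members in RefSeq (mouse build GRCm38.p6). A gene on the other strand started within 1000 bases for 23 members (33.8%), against 1313 of 17491 protein-coding genes (7.51%), with 31 to 934 bases between the starts (median 140). Mrps11 and Mrpl46 face each other across 41 bases, the only pair below in which both genes encode mitochondrial ribosomal proteins. Mrpl50 faces Zfp189, which encodes a zinc finger protein, across 92 bases, and Mrps27 faces Ptcd2, which encodes a mitochondrial RNA-binding protein, across 107 bases. Mrps22 and Mrpl39, both higher in mixed cultures as described further on, had no such neighbour and are shown with 250 bases. All are written 5′ to 3′ on the strand of the first-named gene and end just before its start. Capitals mark matches to CCGGAAG, the core bound by ETS factors such as GABP, or to GCGCNTGCG, the core bound by NRF1, on either strand. The regions are chr7:78783090-78783130 (plus strand), chr4:49521084-49521175 (minus), chr13:99344679-99344785 (plus), chr9:98601680-98601929 (minus) and chr16:84735245-84735494 (minus).
Mrps11, facing Mrpl46: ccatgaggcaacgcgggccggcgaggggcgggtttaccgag
Mrpl50, facing Zfp189: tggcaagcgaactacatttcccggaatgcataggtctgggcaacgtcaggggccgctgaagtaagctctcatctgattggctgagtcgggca
Mrps27, facing Ptcd2, with an ETS core: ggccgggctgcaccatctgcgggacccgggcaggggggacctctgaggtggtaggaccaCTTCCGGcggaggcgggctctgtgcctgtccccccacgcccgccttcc
Mrps22, with an ETS core: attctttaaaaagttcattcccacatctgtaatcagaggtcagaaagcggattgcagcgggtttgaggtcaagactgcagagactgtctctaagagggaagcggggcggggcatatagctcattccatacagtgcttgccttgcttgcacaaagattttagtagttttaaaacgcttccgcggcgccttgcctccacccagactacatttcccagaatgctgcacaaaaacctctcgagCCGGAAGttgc
Mrpl39, with an NRF1 core: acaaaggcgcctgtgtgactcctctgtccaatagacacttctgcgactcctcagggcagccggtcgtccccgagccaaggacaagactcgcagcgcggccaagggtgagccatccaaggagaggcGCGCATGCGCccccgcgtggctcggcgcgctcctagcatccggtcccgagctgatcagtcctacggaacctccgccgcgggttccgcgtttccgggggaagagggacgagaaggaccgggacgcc

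Within 250 bases upstream, on either strand, the NRF1 core GCGCNTGCG was found in 15 members (22.1%), against 7.31% of the 17491 promoters. The ETS core CCGGAAG was found in 16 members (23.5%), against 9.12%, and AAGATGGC, the core of YY1, in 4 (5.88%), against 1.51%. CACGTG, the E box that MYC binds, was in 5 members (7.35%) and in 6.64% of all promoters, and TATAAA in 4 (5.88%) and 12.4%. The cores for NRF1, ETS factors and YY1 were thus more frequent among the members than among all promoters, the E box was about as frequent and TATAAA less frequent. These are matches of letters, and for the 23 members with a near neighbour the window can reach into that gene. The sequences printed above are examples and do not show how common the cores are. Mrps6 and Mrpl24 had neither the NRF1 nor the ETS core, Mrps18b had the NRF1 core, and their sequences are not shown.

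The 2 subunits followed like courses over the 10 groups. The mean difference of the members from their own mean was highest in TN mix at 18 h (0.30, 0.15 and 0.23 in the 3 replicates) and in TMem at 18 h, in mix (0.16, 0.17 and 0.25) and alone (0.03, 0.22 and 0.17). It was lowest in TMem before stimulation (-0.23, -0.42 and -0.26), and TN alone at 18 h lay at -0.11, -0.13 and -0.10. The 3 arrays of TN mix at 18 h lay above the 3 of TN alone at 18 h, without overlap. Of the 77 members 27 had their highest group mean in TN mix at 18 h, 22 in TN alone at 0 h and 13 in TMem mix at 18 h. For 41 members the lowest mean was in TMem alone at 0 h and for 18 in TN alone at 18 h. TN alone at 0 h lay at 0.42, -0.15 and -0.06 in the 3 replicates, so its group means lean on replicate 1. Counts of highest and lowest groups were made for the members only, without the share over all genes. The 52 cytosolic ribosomal protein genes, which serve the ribosomes outside mitochondria, were highest in TN alone at 0 h (0.50, 0.33 and 0.35). In bulk samples such as these, fewer cells of a type and less RNA per cell cannot be told apart.

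**Figure D1:**
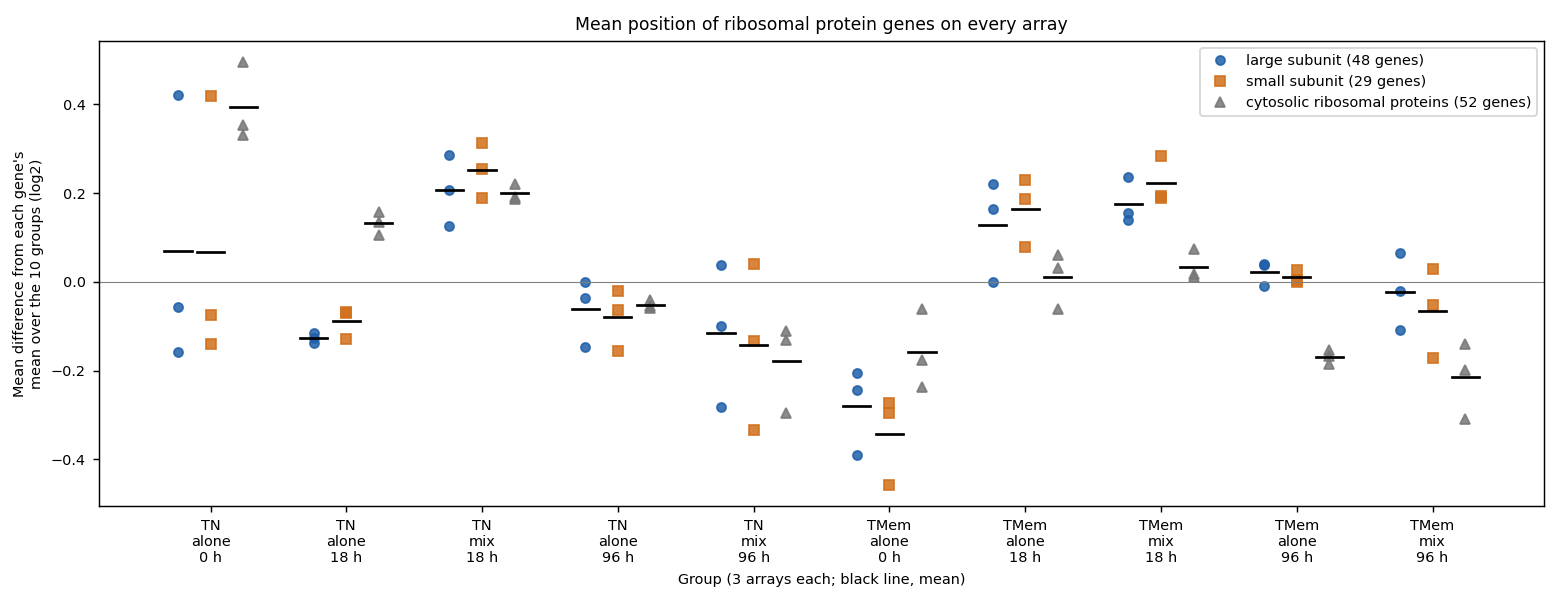
Mean log2 difference of large-subunit (48 genes, circles), small-subunit (29 genes, squares) and cytosolic ribosomal protein genes (52 genes, triangles) from each gene's own mean over the 10 groups, for every array, with a black line at the mean of a group. Both mitochondrial subunits are high in TN mix at 18 h and in TMem at 18 h and low in TMem alone at 0 h, and replicate 1 of TN alone at 0 h lies far above the other 2.

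**Figure D2:**
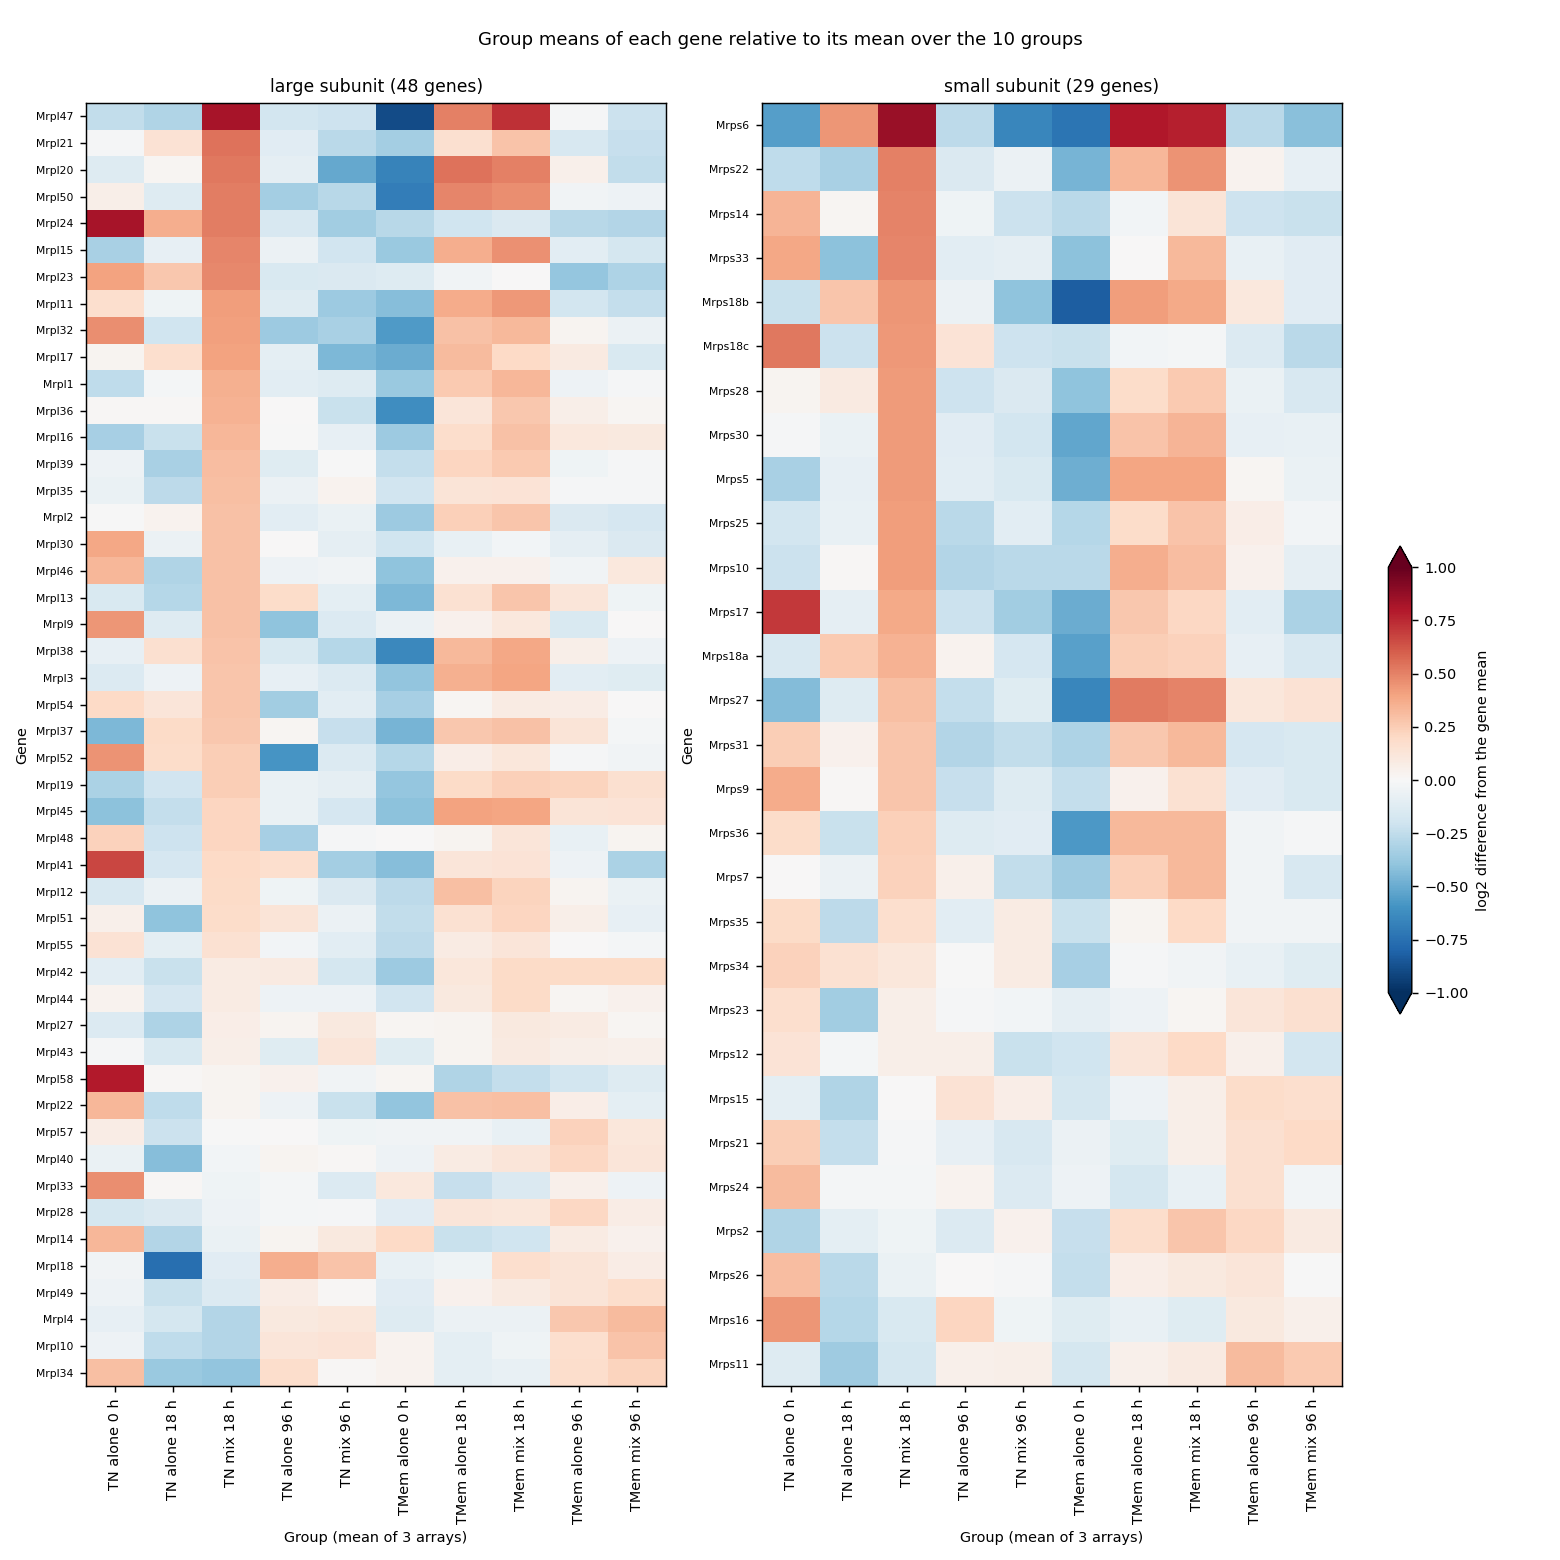
Group means of each member minus its mean over the 10 groups (log2, red higher, blue lower), by subunit, with genes ordered from top to bottom by their value in TN mix at 18 h. The columns of TN mix at 18 h and TMem at 18 h are mostly red and that of TMem alone at 0 h is mostly blue in both subunits, and a few genes such as Mrpl24, Mrpl58 and Mrpl18 follow other courses.

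TN cells stimulated for 18 h in the company of TMem cells had higher levels of mitochondrial ribosomal protein genes than TN cells stimulated alone. Of the 77 members 29 rose and 0 fell at an adjusted p under 0.05 in limma, while 6.30% of all genes rose and 8.15% fell. At an unadjusted p under 0.05 the counts were 49 and 0. Unadjusted counts, here and below, were made for the members only. They have no share of all genes at that bound beside them. The difference was above 0 for 72 members, with a median of 0.34 on the log2 scale and a range from -0.11 to 1.12, and the median over all genes was -0.01. For 59 members all 3 mixed arrays lay above all 3 alone arrays and for 0 below, against 16.7% and 17.4% of all genes. Large and small subunit did this alike, with 17 of 48 (median 0.33) and 12 of 29 (median 0.34) called.

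Mrps22 encodes a small-subunit protein found in animal mitochondria but not in bacteria. Its levels were 9.03, 8.95 and 8.94 in TN alone at 18 h and 9.94, 9.69 and 9.76 in TN mix at 18 h. The groups did not overlap, and the difference was 0.83 (SE 0.17, n = 3 and 3, limma adjusted p = 0.00109). Mrps33, another small-subunit protein, had 9.44, 9.23 and 9.36 alone and 10.54, 10.04 and 10.14 in mix. All mixed values were above all others, with a difference of 0.90 (SE 0.21, limma adjusted p = 0.00347).

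In the large subunit, Mrpl50 had 9.90, 9.86 and 9.95 in TN alone at 18 h and 10.73, 10.46 and 10.45 in TN mix. Mrpl39 had 9.61, 9.35 and 9.53 alone and 10.28, 10.02 and 10.09 in mix. For both genes the 2 groups were clear of each other, and the differences were 0.64 (SE 0.13, limma adjusted p = 0.00123) and 0.63 (SE 0.12, limma adjusted p = 0.000585). Mrpl18, whose bacterial counterpart binds the 5S ribosomal RNA, had 9.45, 9.37 and 9.42 alone and 10.29, 9.84 and 10.04 in mix. That difference was 0.64 (SE 0.17, limma adjusted p = 0.00928) and was no longer called without replicate 1 of TN mix at 18 h. Mrpl47, near the exit of the nascent chain, gave the widest difference at 1.12 (SE 0.29, limma adjusted p = 0.00778), with 8.05, 7.95 and 8.22 alone and 9.47, 9.19 and 8.93 in mix. Its other row gave only 0.19, so the 2 rows of Mrpl47 disagree.

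The members that rose also included Mrpl45 (0.45), which anchors the ribosome to the inner membrane, Mrps30 (0.49), Mrpl32 (0.61), which a protease of the inner membrane cuts to its mature form, Mrpl46 (0.59) and Mrpl15 (0.57). With each of the 6 arrays left out in turn, Mrpl45 and Mrpl32 lost the call 4 times, Mrps30 2 times and Mrpl46 6 times. Mrps6, a counterpart of a bacterial small-subunit protein, went from 9.73, 9.66 and 9.57 alone to 10.15, 9.98 and 10.08 in mix, by 0.42 (SE 0.10, limma adjusted p = 0.00355). The other 48 members were not called. Mrpl4 (-0.11), Mrpl33 (-0.05), Mrps34 (-0.04), Mrpl10 (-0.04) and Mrpl34 (-0.03) were those with a difference under 0, and in each the groups overlapped. Mrps11 had a difference of 0.18 (limma adjusted p = 0.342), with 8.59, 8.67 and 8.64 alone and 8.91, 8.84 and 8.69 in mix. Its partner across the 41 bases, Mrpl46, had 8.55, 8.46 and 8.46 alone and 9.22, 9.01 and 9.02 in mix (SE 0.19, limma adjusted p = 0.0306).

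The count of 29 became 18 without replicate 1 of TN mix at 18 h, 19 without replicate 2 of TN alone at 18 h and 52 with array weights. Shares of all genes are given for the main fit only. A change of count under an alternative, here or below, may therefore be shared with all genes. Of markers of other cells in these groups, B cell and antigen presentation genes summed to 9.90 to 9.98 alone and 9.96 to 10.10 in mix. Myeloid genes summed to 9.49 to 9.58 and 9.50 to 9.64, and Y-linked genes to 9.18 to 9.30 and 9.19 to 9.33. CD8 T cell markers summed to 14.37 to 14.41 alone and 14.16 to 14.24 in mix, and CD4 T cell markers to 9.37 to 9.51 and 9.13 to 9.23. The part of all these in the result was not tested.

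**Figure D3:**
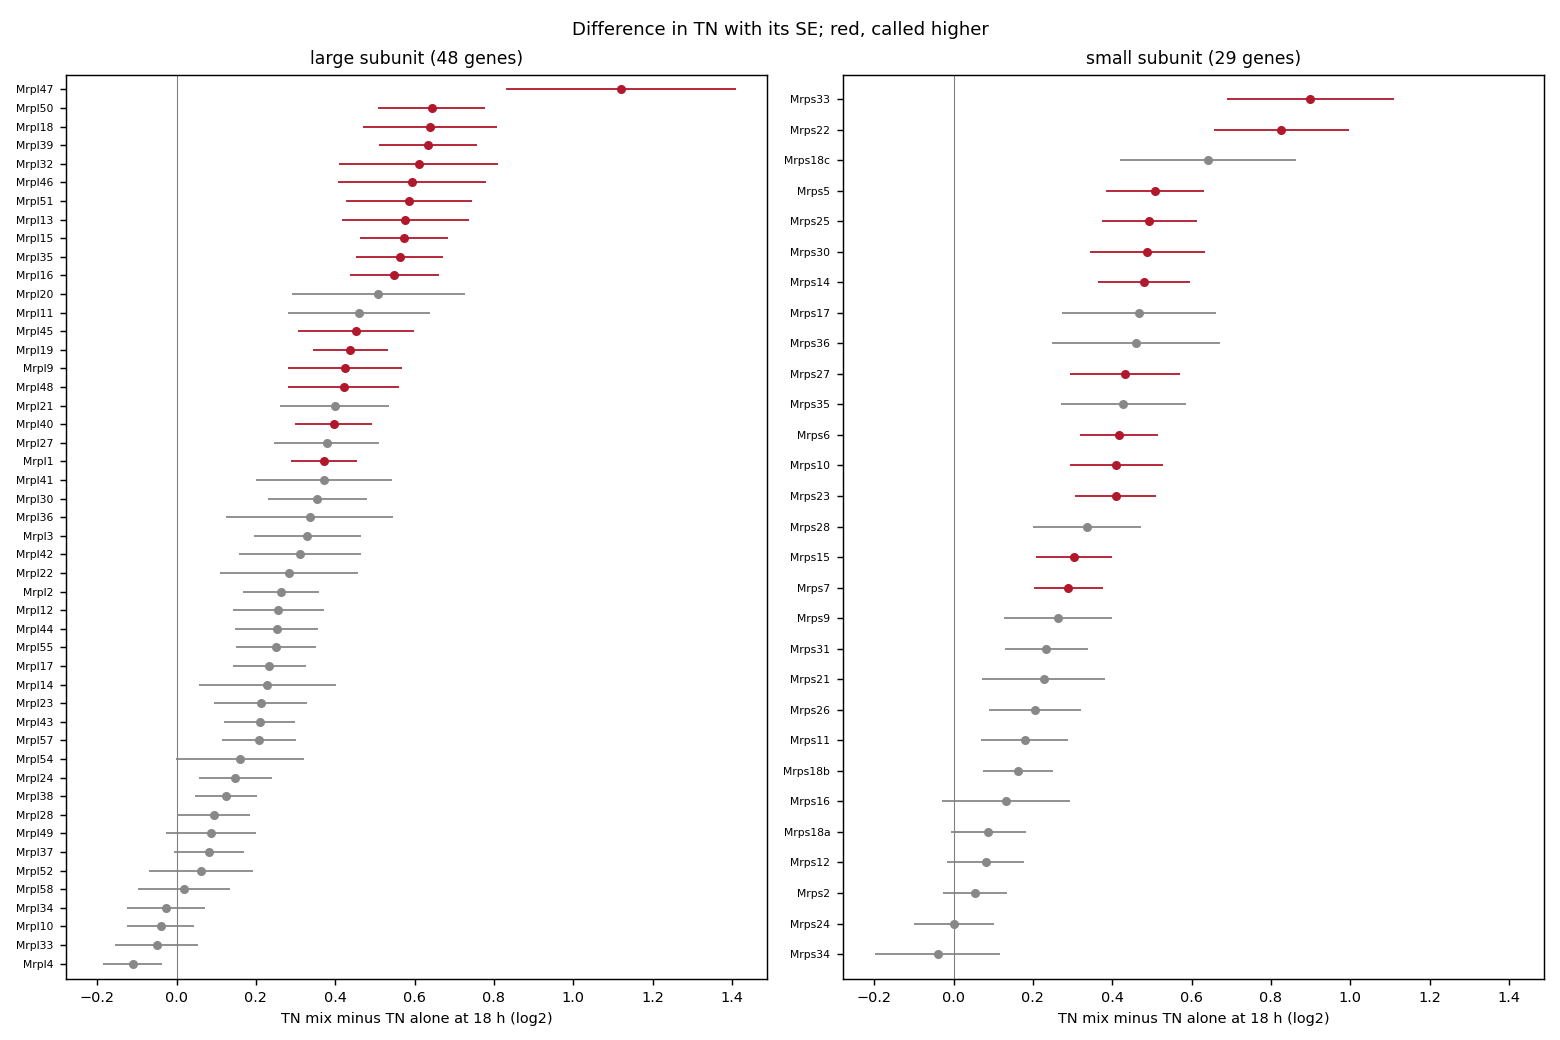
Difference between TN mix and TN alone at 18 h on the log2 scale for every member, by subunit, with bars of 1 SE (n = 3 and 3); red points are the 29 members called higher by limma and grey points were not called. Nearly all points of both subunits lie to the right of 0, with a median of 0.34.

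In TMem cells no member was called for the same comparison at 18 h. Of the 77 members 0 rose and 0 fell between TMem mix and TMem alone, as 0.00% and 0.0301% of all genes did, and 0 members had an unadjusted limma p under 0.05 in either direction. The count was also 0 under every alternative run for this comparison. The median difference was 0.05. Mrps22 had 9.53, 9.76 and 9.60 in TMem alone and 9.74, 9.77 and 9.73 in TMem mix, and Mrpl50 had 10.36, 10.61 and 10.59 alone and 10.38, 10.54 and 10.57 in mix. The groups overlapped for both genes.

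A test of the difference itself was added after these results were seen. The effect of mixing at 18 h was larger in TN than in TMem cells for 3 members and smaller for 0, against 1.44% and 3.73% of all genes, with 22 and 0 at an unadjusted limma p under 0.05. The 3 were of the large subunit: Mrpl50 (0.66, SE 0.19, limma adjusted p = 0.038), Mrpl39 (0.58, SE 0.18, limma adjusted p = 0.0487) and Mrpl35 (0.56, SE 0.16, limma adjusted p = 0.0311). The difference of effects was above 0 for 68 members, with a median of 0.27, while the median over all genes was -0.04. The count was 0 without replicate 1 of TN mix, replicate 2 or 3 of TN alone, replicate 2 of TMem alone, or replicate 1 or 2 of TMem mix. It was 1 without replicate 1 of TN alone or replicate 3 of either TMem group, 2 without replicate 3 of TN mix, 1 with the replicate number as a block, 20 in a fit of these 4 groups alone and 30 with array weights. For most members the data therefore do not show that the 2 cell types differ in the effect of mixing at 18 h.

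By 96 h few members were called between the mixed and alone cultures of TN cells. Of the members 1 rose and 4 fell, against 7.00% and 3.62% of all genes, and the median difference was -0.05. The rise was in Mrpl52 (0.45, SE 0.13, limma adjusted p = 0.023), a protein particular to the mitochondrial large subunit, and the falls in Mrps6 (-0.39), Mrpl17 (-0.35), Mrps18b (-0.35) and Mrps7 (-0.30). Mrpl52 had 9.48, 9.40 and 9.27 alone and 9.94, 9.93 and 9.66 in mix, and Mrps6 had 8.88, 8.96 and 8.99 alone and 8.36, 8.77 and 8.53 in mix. None of the 5 was called without replicate 1 of TN mix at 96 h, and 1 member was called without replicate 2 of TN alone at 96 h. With the replicate number as a block in a fit of these groups alone, 2 rose and 6 fell. The alone cultures had higher levels of markers of other cells at this time, with B cell and antigen presentation genes at 11.71 to 11.85 against 10.45 to 10.57 in mix, myeloid genes at 10.18 to 10.24 against 9.42 to 9.67, and mast cell and basophil genes at 9.87 to 10.07 against 8.77 to 9.00. Y-linked genes were near background alone and not in mix, and the part of all these in the result was not tested.

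In TMem cells at 96 h 0 members rose and 0 fell with mixing, against 0.968% and 0.150% of all genes, and at an unadjusted limma p under 0.05 the counts were 0 and 3. With array weights 1 member was called. The effect of mixing at 96 h was also compared between the cell types. It differed for 0 members in either direction, against 1.92% and 1.62% of all genes, with 2 and 0 members at an unadjusted limma p under 0.05 and 3 called with array weights.

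Within TN cells the effect of mixing was smaller at 96 h than at 18 h for 20 members and larger for 0, against 4.26% and 8.16% of all genes, with a median of -0.38. At an unadjusted limma p under 0.05 the counts were 41 and 1. Mrps18c, 1 of 3 counterparts of a single bacterial protein, had 8.85, 8.54 and 8.85 alone and 9.51, 9.36 and 9.29 in mix at 18 h. At 96 h it had 8.95, 9.24 and 9.10 alone and 8.24, 8.99 and 9.00 in mix. The mixed values lay above the others at 18 h and overlapped them at 96 h, and the difference of the effects was -0.99 (SE 0.31, limma adjusted p = 0.0357). Others were Mrpl20 (-0.93), Mrpl41 (-0.88) and Mrpl13 (-0.85). None of these 4 was called without replicate 1 of TN mix at 96 h, when 7 members were called in all. The count lay at 9 to 13 without each of 6 other arrays: replicates 2 and 3 of TN alone at 96 h, replicates 1, 2 and 3 of TN alone at 18 h and replicate 1 of TN mix at 18 h. It was 34 with arrays centred on their medians. Y-linked genes were near background in TN alone at 96 h and not in the other groups compared. B cell and antigen presentation genes were at 11.71 to 11.85 in TN alone and 10.45 to 10.57 in TN mix at 96 h. At 18 h they were at 9.90 to 9.98 alone and 9.96 to 10.10 in mix. The part of all these in the result was not tested.

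**Figure D4:**
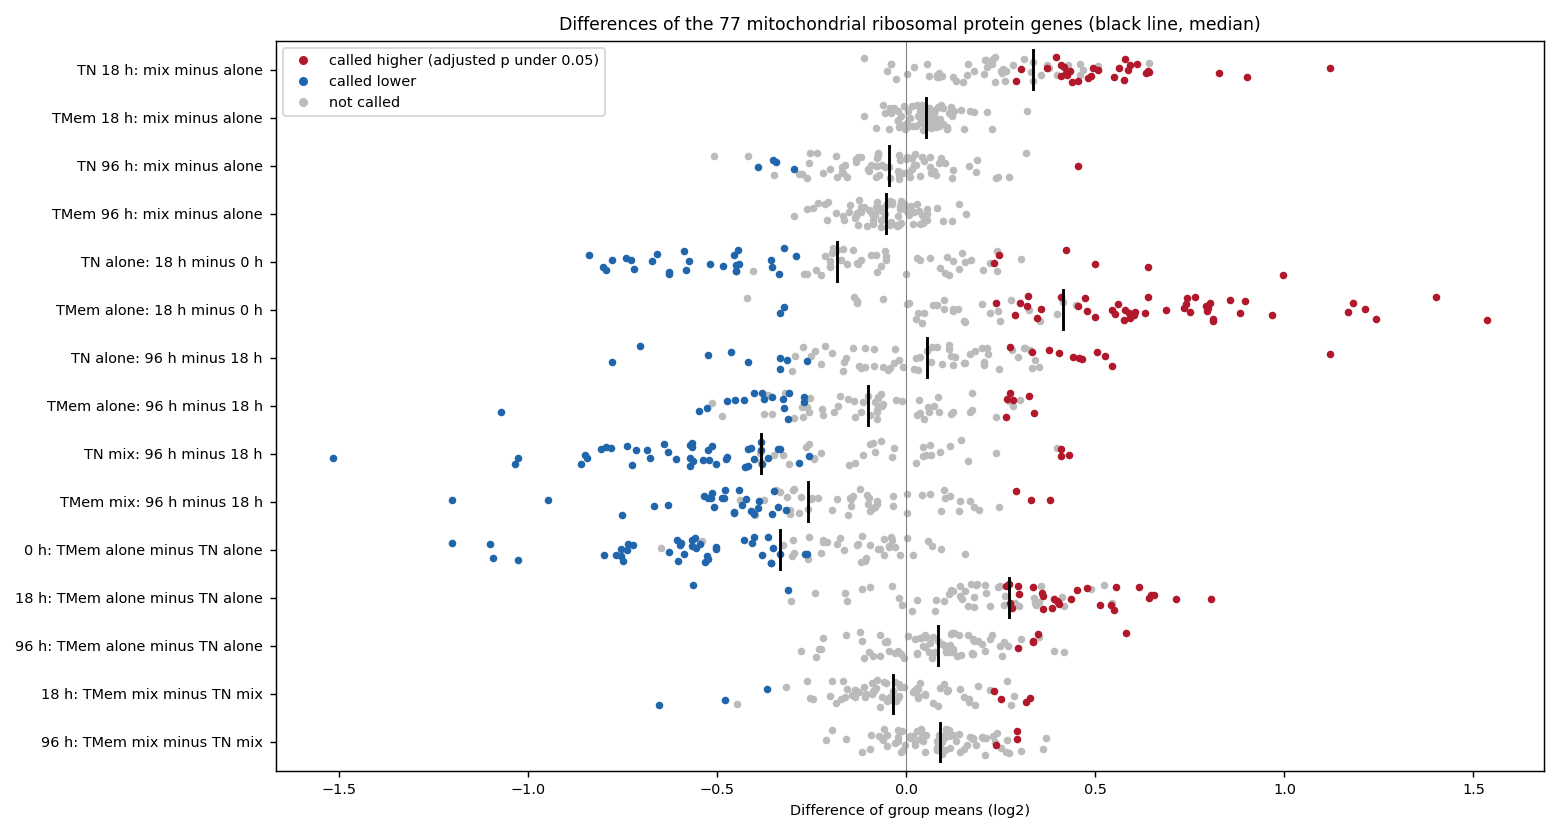
Differences of group means (log2) of all 77 members in 15 comparisons of 2 groups; each point is a gene, red called higher and blue called lower by limma at an adjusted p under 0.05, grey not called, with a black line at the median. The points lie to the right of 0 in TN 18 h mix minus alone and in TMem alone 18 h minus 0 h, to the left in TN mix 96 h minus 18 h and in TMem minus TN at 0 h, and around 0 for TMem mix minus alone.

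Stimulation for 18 h raised most members in TMem cells alone. Of the 77 members 45 rose and 2 fell, against 18.0% and 17.3% of all genes, with a median of 0.41 and a range from -0.42 to 1.53. The groups did not overlap for 52 members upward and 3 downward, against 20.1% and 23.4% of all genes. In the large subunit 28 of 48 rose and 2 fell, and in the small subunit 17 of 29 rose and 0 fell.

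Mrps6 had 8.56, 8.38 and 8.49 in TMem at 0 h and 9.86, 10.04 and 10.13 at 18 h. No value of the 2 groups came near the other group, and the rise was 1.53 (SE 0.10, limma adjusted p = 5.2e-13). Mrps18b had 10.19, 9.92 and 10.27 at 0 h and 11.31, 11.31 and 11.49 at 18 h, a rise of 1.24 (SE 0.09, limma adjusted p = 5.24e-12). Mrps27, which carries pentatricopeptide repeats that bind RNA, had 7.93, 7.61 and 7.53 before and 8.82, 8.77 and 8.98 after, a rise of 1.17 (SE 0.14, limma adjusted p = 8.02e-08).

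In the large subunit of TMem cells Mrpl50 had 9.55, 9.16 and 9.30 at 0 h and 10.36, 10.61 and 10.59 at 18 h, a rise of 1.18 (SE 0.13, limma adjusted p = 3.64e-08). Mrpl20, which is needed early in assembly of the bacterial large subunit, had 8.27, 7.60 and 8.42 before and 9.18, 9.41 and 9.33 after, a rise of 1.21 (SE 0.22, limma adjusted p = 4.76e-05). In both genes all values at 18 h were above all at 0 h. The row used for Mrpl47 rose by 1.40 while its other row differed by -0.06. The members that fell were Mrpl33 (-0.33, SE 0.10, limma adjusted p = 0.013) and Mrpl58 (-0.32, SE 0.12, limma adjusted p = 0.0289), also known as Ict1, which frees chains from stalled ribosomes. Neither was called with arrays centred on their medians or without replicate 1 of TMem alone at 18 h. Mast cell and basophil markers summed to 9.71 to 10.72 in TMem at 0 h and 8.50 to 8.53 at 18 h, and erythroid and platelet markers (2 of 5 matched) to 8.20 to 8.52 and 7.39 to 7.62. Their part in the rise was not tested.

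In TN cells stimulated alone for 18 h more members fell than rose. The counts were 6 up and 27 down, against 17.1% and 16.7% of all genes, with a median of -0.18. The groups did not overlap for 8 members upward and 27 downward, where 21.2% of all genes did so in each direction. Without replicate 1 of TN alone at 0 h the counts were 12 and 12 and the median -0.04, so the balance toward falls rests on that array. With array weights 20 rose and 27 fell, and in a fit of these groups alone 13 were called in all.

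Mrps6 again rose, from 8.84, 8.48 and 8.65 at 0 h to 9.73, 9.66 and 9.57 at 18 h (1.00, SE 0.10, limma adjusted p = 3.09e-09). Mrpl37 rose from 9.56, 9.46 and 9.50 to 10.09, 10.18 and 10.16 (0.64, SE 0.09, limma adjusted p = 1.13e-06). Both genes had no overlap between the groups. Mrps18b (0.50) and Mrps18a (0.42) also rose, while Mrps18c went from 10.20, 9.06 and 9.20 to 8.85, 8.54 and 8.85 (-0.74, SE 0.22, limma adjusted p = 0.00926). Without replicate 1 of TN at 0 h the difference of Mrps18c was -0.38 (SE 0.20, limma adjusted p = 0.165) and it was not called. Of the 3 counterparts of this bacterial protein 2 thus rose in TN cells, and the fall of the third rests on that array.

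Mrpl58 fell from 11.00, 10.44 and 10.59 in TN at 0 h to 9.87, 9.99 and 9.83 at 18 h (-0.78, SE 0.12, limma adjusted p = 3.28e-06). Mrps17, whose bacterial counterpart binds ribosomal RNA early in assembly, fell from 9.29, 8.51 and 8.72 to 7.93, 7.97 and 8.24 (-0.80, SE 0.19, limma adjusted p = 0.00154). In both genes the fall held without replicate 1 of TN at 0 h. Mrpl41 fell by 0.84 on the log2 scale (SE 0.17, limma adjusted p = 0.000244), where its other row gave -0.56. Mrps33 differed by -0.80, and by -0.42 (limma adjusted p = 0.0639) without that array. Y-linked genes went from near background at 0 h to 9.18 to 9.30 at 18 h, and B cell and antigen presentation genes from 10.34 to 10.62 to 9.90 to 9.98. The part of these in the falls was not tested.

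The difference between the cell types in the response to 18 h of stimulation was tested directly. The response was more positive in TMem than in TN cells for 55 members and more negative for 0, against 14.2% and 14.7% of all genes, with 62 and 0 members at an unadjusted limma p under 0.05. The difference of responses was above 0 for 77 of 77 members, with a median of 0.56 and a range from 0.06 to 1.56. In the large subunit 33 of 48 were called and in the small subunit 22 of 29. Without replicate 1 of TN alone at 0 h 38 were called and the median was 0.38, and in a fit of these 4 groups alone 33 were called. Y-linked genes were near background in TN at 0 h and not in the other groups compared. Mast cell and basophil markers were at 9.71 to 10.72 in TMem and 8.54 to 8.74 in TN at 0 h. At 18 h they were at 8.50 to 8.53 in TMem and 8.53 to 8.62 in TN. The part of all these in the result was not tested.

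Mrps17 had the widest difference of responses at 1.56 (SE 0.27, limma adjusted p = 6.46e-05). It rose in TMem from 7.60, 7.29 and 8.02 to 8.21, 8.53 and 8.46, where it had fallen in TN. Mrpl32 (1.52) had 7.96, 7.41 and 8.14 in TMem at 0 h and 8.52, 8.75 and 8.80 at 18 h, against 9.52, 8.37 and 8.69 and then 8.10, 8.09 and 8.42 in TN. In TMem the values at 18 h were all higher, and in TN 2 of 3 values at 18 h were below all at 0 h. The others among the widest were Mrpl47 (1.45), Mrpl41 (1.39), Mrpl50 (1.37, SE 0.19, limma adjusted p = 2.67e-06) and Mrps36 (1.30). The second rows of 3 of these gave other sizes, 0.50 for Mrpl47, 0.80 for Mrpl41 and 1.64 for Mrps36. Mrps36 is today also named Kgd4 and is counted as a component of the 2-oxoglutarate dehydrogenase complex. These 6 were called under all 20 alternatives run, among them the mean of the rows of a gene.

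**Figure D5:**
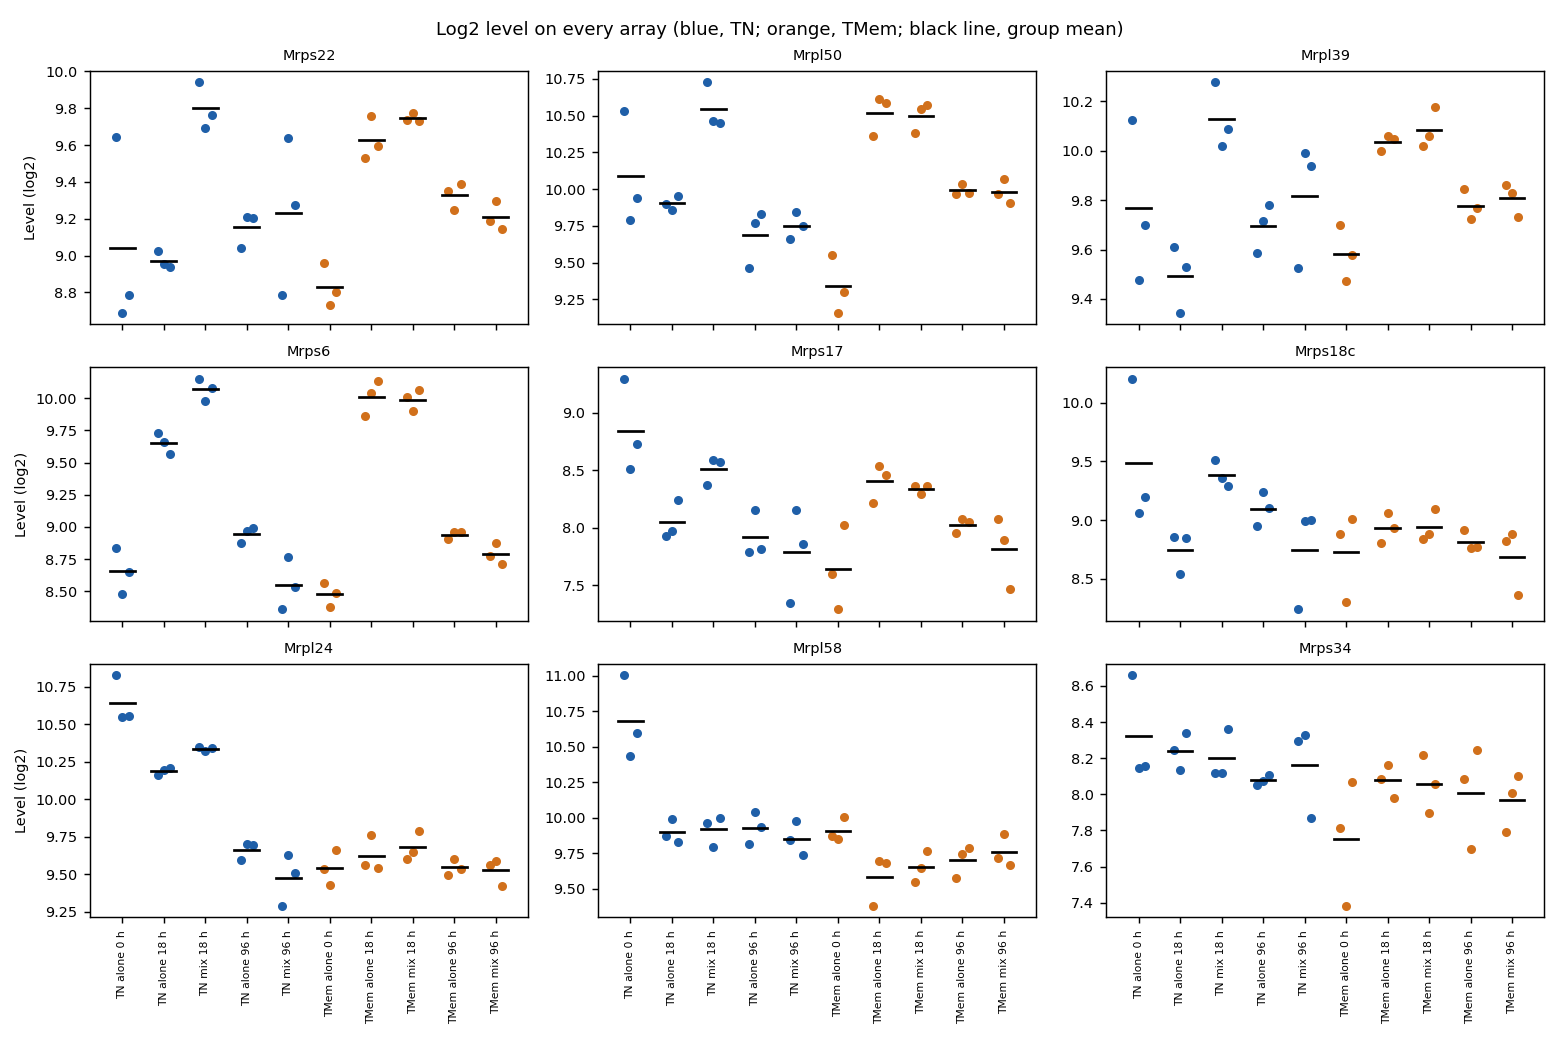
Log2 level of 9 members on every array, blue for TN and orange for TMem groups, with a black line at the group mean. Mrps22, Mrpl50 and Mrpl39 are high in TN mix at 18 h and both TMem groups at 18 h, Mrps6 is high in all groups at 18 h, Mrpl24 and Mrpl58 are highest in TN alone at 0 h, and Mrps34 varies little outside the 0 h groups.

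After 18 h the levels fell again in mixed TN cultures. Between 18 h and 96 h 43 members fell and 3 rose in TN mix, against 16.5% and 20.6% of all genes, with a median of -0.38 and groups that did not overlap for 49 members downward and 4 upward, against 18.9% and 25.1% of all genes. Without replicate 1 of TN mix at 96 h the counts were 26 and 4. Mrps6 fell by 1.52 on the log2 scale (SE 0.10, limma adjusted p = 5.27e-13), from 10.15, 9.98 and 10.08 to 8.36, 8.77 and 8.53, below every value at 18 h. Mrpl24, a counterpart of a bacterial protein that starts assembly of the large subunit, went from 10.35, 10.32 and 10.34 to 9.29, 9.63 and 9.51 (-0.86, SE 0.09, limma adjusted p = 1.12e-08). Mrpl20 had 9.31, 9.28 and 9.30 at 18 h and 7.90, 8.66 and 8.21 at 96 h (-1.04, SE 0.22, limma adjusted p = 0.000356). The 3 that rose were Mrpl10 (0.43), at the base of the stalk that recruits translation factors, Mrpl4 (0.41) and Mrpl34 (0.41), and Mrpl34 was not called with arrays centred on their medians. That setting moved the median of all genes in this comparison from 0.07 to -0.13. From 18 h to 96 h in TN mix, B cell and antigen presentation genes went from 9.96 to 10.10 to 10.45 to 10.57 and mast cell and basophil genes from 8.40 to 8.58 to 8.77 to 9.00, and their part in the falls was not tested.

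The same step in TMem mix lowered 26 members and raised 3, against 11.5% and 16.1% of all genes, with a median of -0.26. Mrps6 fell by 1.20 on the log2 scale and Mrpl11 by 0.67, while Mrpl4 rose by 0.38, Mrpl10 by 0.33 and Mrpl34 by 0.29, which was not called without any 1 of 5 of the 6 arrays. In TMem alone 16 members fell and 6 rose between 18 h and 96 h, against 9.87% and 14.6% of all genes, and Mrps6 (-1.07), Mrpl11 (-0.55), Mrpl50 (-0.53) and Mrpl15 (-0.47) were lower. With arrays centred on their medians these counts were 20 and 1. They were 10 and 4, 11 and 1 and 12 and 1 without replicates 1, 2 and 3 of TMem alone at 96 h, and 8 and 4 without replicate 3 of TMem alone at 18 h. Mrpl11 lost its call without 4 of the 6 arrays of TMem alone. Myeloid markers went from 9.45 to 9.47 at 18 h to 10.43 to 10.44 at 96 h in TMem mix and from 9.36 to 9.58 to 10.45 to 10.61 in TMem alone. NK cell markers (4 of 4 matched) went from 7.01 to 7.04 to 7.54 to 7.94 in mix and from 6.86 to 7.09 to 7.82 to 7.89 alone, with 3 of 4 near background at 96 h. Their part in the falls was not tested.

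Compared with 0 h, 31 members were higher and 0 lower in TMem alone at 96 h, against 16.1% and 8.44% of all genes, with 1 lower at an unadjusted limma p under 0.05. Mrps18b (0.93, limma adjusted p = 5.42e-09), Mrps27 (0.77) and Mrpl38 (0.70, limma adjusted p = 8.6e-08) were among the largest rises. Mast cell and basophil markers were at 9.71 to 10.72 at 0 h and 8.80 to 8.89 at 96 h in these groups, and myeloid markers at 9.42 to 9.87 and 10.45 to 10.61, and their part was not tested. In TN alone 11 members rose and 9 fell between 18 h and 96 h, against 11.3% and 13.1% of all genes, shares near those of the members. With arrays centred on their medians 7 rose and 11 fell. Mrpl18 rose from 9.45, 9.37 and 9.42 to 10.48, 10.56 and 10.57 (1.12, SE 0.17, limma adjusted p = 6.95e-06), beside 10.66, 9.82 and 9.93 in TN at 0 h. Mrpl52 fell by 0.78 and Mrpl24 by 0.53. Between 0 h and 96 h 5 members rose and 18 fell in TN alone, against 18.6% and 17.9% of all genes, 17 and 11 without replicate 1 of TN alone at 0 h and 27 and 18 with array weights. The median was -0.09 as reported, 0.04 without that array and 0.02 with array weights, so the balance toward falls rests on that array. Mrpl24 fell by 0.98 (SE 0.09, limma adjusted p = 7.16e-10) and Mrpl37 rose by 0.47. In TN alone B cell and antigen presentation markers were at 10.34 to 10.62 at 0 h, 9.90 to 9.98 at 18 h and 11.71 to 11.85 at 96 h, mast cell and basophil markers at 8.54 to 8.74, 8.53 to 8.62 and 9.87 to 10.07, and myeloid markers at 9.32 to 9.47, 9.49 to 9.58 and 10.18 to 10.24. Y-linked genes were near background at 0 h and 96 h and not at 18 h. The part of all these in the differences of TN alone at 96 h was not tested.

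Before stimulation TMem cells had lower levels of members than TN cells. Of the 77 members 39 were lower and 0 higher in TMem, against 17.5% and 18.4% of all genes, with 43 and 0 at an unadjusted limma p under 0.05. The median difference was -0.33, and the groups did not overlap for 34 members downward and 0 upward, against 17.1% and 18.7% of all genes. Of the small subunit 19 of 29 were lower and of the large subunit 20 of 48. Without replicate 1 of TN alone at 0 h 21 were lower and 1 higher, with a median of -0.18, and in a fit of these groups alone 15 were called.

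Mrpl24 had 10.82, 10.55 and 10.56 in TN and 9.54, 9.43 and 9.66 in TMem at 0 h. The groups were far apart, with a difference of -1.10 (SE 0.09, limma adjusted p = 9.03e-11) that was called under all 14 alternatives. Mrps17 (-1.20, SE 0.19, limma adjusted p = 9.86e-06), Mrpl41 (-1.09, SE 0.17, limma adjusted p = 7.13e-06) and Mrpl32 (-1.03, SE 0.20, limma adjusted p = 0.000134) were lower as well. The other row of Mrpl41 gave -0.66. Mrps34 had 8.66, 8.15 and 8.16 in TN and 7.81, 7.38 and 8.07 in TMem (-0.57, SE 0.16, limma adjusted p = 0.00525), and without replicate 1 of TN at 0 h Mrps34 was not called (-0.40, limma adjusted p = 0.0663). Mast cell and basophil markers summed to 8.54 to 8.74 in TN and 9.71 to 10.72 in TMem at 0 h, erythroid and platelet markers to 7.57 to 7.69 and 8.20 to 8.52, and Y-linked genes were near background in TN alone. Their part in the difference was not tested.

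At 18 h alone the direction was the opposite, with 28 members higher and 2 lower in TMem than in TN, against 15.4% and 13.5% of all genes, and a median of 0.27. Without replicate 3 of TN alone at 18 h these were 18 and 1. Mrpl18 (0.71, SE 0.17, limma adjusted p = 0.00148), Mrps22 (0.66, SE 0.17, limma adjusted p = 0.00366), Mrps27 (0.65), Mrpl45 (0.64) and Mrpl50 (0.62) were higher in TMem, and Mrpl24 (-0.56) and Mrpl58 (-0.31) lower. Mrpl58 lost its call without 4 of the 6 arrays. CD8 T cell markers were at 14.37 to 14.41 in TN and 13.66 to 13.78 in TMem, CD4 T cell markers at 9.37 to 9.51 and 8.61 to 8.77, and Y-linked genes at 9.18 to 9.30 and 10.06 to 10.42, and their part in the difference was not tested. In mix at 18 h 4 were higher and 3 lower, against 11.8% and 8.64% of all genes, with a median of -0.04. Mrps22 differed there by -0.05 and Mrpl50 by -0.05, with overlapping groups, while Mrpl24 kept a difference of -0.66 (limma adjusted p = 2.41e-06) and Mrpl23 one of -0.48. With arrays centred on their medians 1 was higher and 6 were lower in mix, and the counts were 1 and 2 without replicate 2 of TMem mix, 1 and 3 without its replicate 3 and 0 and 2 without replicate 2 of TN mix at 18 h.

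At 96 h 5 members were higher in TMem than in TN and 0 lower alone, against 14.1% and 8.02% of all genes, and a median of 0.08. Mrpl52 (0.58, SE 0.13, limma adjusted p = 0.00128) and Mrps2 (0.35, SE 0.08, limma adjusted p = 0.00156) were the firmest, both called under all 14 alternatives. The unadjusted counts were 14 and 0, quantile normalization gave 2 higher and 4 lower with a median of -0.01, and 2 or 3 were called without replicate 1 of TN alone or without replicate 2 or 3 of TMem alone at 96 h. Markers of other cells were far apart between these groups: B cell and antigen presentation genes were at 11.71 to 11.85 in TN and 9.67 to 9.77 in TMem, mast cell and basophil genes at 9.87 to 10.07 and 8.80 to 8.89, and Y-linked genes at 6.26 to 6.45 and 10.25 to 10.29. Their part in the result was not tested. In mix 3 were higher and 0 lower, against 6.68% and 3.94% of all genes, with 11 and 0 unadjusted: Mrpl17 (0.29), Mrps18b (0.29) and Mrpl38 (0.24). Without replicate 1 of TN mix none of these 3 was called and 1 other member was, Mrpl4, and 0 were called without replicate 3 of TN mix or without replicate 1 or 2 of TMem mix.

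Members with known special roles did not all follow the majority. Mrpl12, which forms the stalk and also binds the mitochondrial RNA polymerase, had 9.61, 9.83 and 9.51 in TMem at 0 h and 10.01, 10.39 and 10.23 at 18 h, a rise of 0.56 (SE 0.11, limma adjusted p = 0.000253). In TN at 18 h the log2 difference of mix minus alone was 0.26, without overlap of the groups but with a limma adjusted p = 0.154. Mrps12, which lies at the decoding site, rose by 0.32 in TMem (limma adjusted p = 0.0104) and had a difference of 0.08 between TN mix and alone at 18 h. Mrpl44, which resembles RNase III enzymes, rose by 0.29 in TMem (limma adjusted p = 0.0335; not called without 3 of the 6 arrays), and Mrpl3, near the catalytic centre, by 0.75 (limma adjusted p = 4.38e-05). Mrps16 had a difference of 0.05 in TMem and fell by 0.73 on the log2 scale in TN alone (limma adjusted p = 0.000622), and by 0.45 without replicate 1 of TN at 0 h. Mrpl24 and Mrpl58 were among the 22 members whose highest group mean was in TN alone at 0 h.

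Other genes of mitochondrial gene expression were followed as lists. Between TN mix and alone at 18 h, where 6.30% of all genes rose, 2 of 4 genes of ribosomal subunits with other symbols rose (Ptcd3 by 0.57 and Dap3 by 0.38), and Chchd1 differed by 0.56 (limma adjusted p = 0.0585). Of the factors for ribosome assembly and ribosomal RNA modification 5 of 27 rose, with Fastkd2 at 0.89 (SE 0.15, limma adjusted p = 9.8e-05) and C1qbp at 0.37. Of the genes of mitochondrial DNA and RNA synthesis 7 of 19 rose, among them Slirp (0.77), which stabilizes mitochondrial messenger RNAs, and Top1mt (0.52), a topoisomerase. Of translation factors 3 of 13 rose, with Gfm1, an elongation factor, at 0.62, and of aminoacyl-tRNA synthesis genes 2 of 19. In these lists 0 genes fell. Of the genes encoded in mitochondrial DNA only ND3 and COX2 were matched. Their mean difference from each gene's own mean over the groups was 0.04, -0.07 and 0.15 in TN alone at 18 h. In TN mix at 18 h it was 0.09, 0.31 and -0.003, which overlaps. Of 52 cytosolic ribosomal protein genes 2 rose (Rpl12 by 0.39 and Rpl14 by 0.77) and 0 fell, with a median of 0.03. With each of the 6 arrays left out in turn, Dap3 lost the call 5 times, Ptcd3 3 times and Rpl14 2 times.

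In TMem cells at 18 h against 0 h, where 18.0% of all genes rose, 3 of 4 subunits with other symbols rose, 17 of 27 assembly factors, 15 of 19 genes of DNA and RNA synthesis, 8 of 13 translation factors and 9 of 19 aminoacyl-tRNA synthesis genes, and 0 genes of these lists fell. Fastkd2 rose by 1.48, Top1mt by 1.46 and C1qbp by 1.17. Of the 52 cytosolic ribosomal protein genes 12 rose and 0 fell (median 0.08). In TN alone, where 17.1% of all genes rose and 16.7% fell, 31 of the 52 cytosolic genes fell and 2 rose (median -0.27), 6 assembly factors rose and 7 fell, and 7 genes of DNA and RNA synthesis rose and 3 fell. These counts use all arrays, and replicate 1 of TN alone at 0 h was the highest there too. Its mean difference from each gene's own mean was 0.22 for assembly factors, against -0.01 and 0.03 in the other replicates. For DNA and RNA synthesis it was 0.04, against -0.10 and -0.08, and for cytosolic genes 0.50, against 0.33 and 0.35. Myc, which drives growth in activated T cells, rose by 2.16 in TN alone and by 1.35 in TMem alone at 18 h, and differed by 0.10 between TN mix and alone (limma adjusted p = 0.631). Pprc1, a coactivator of nuclear genes for mitochondria, rose by 2.13 in TN and 1.41 in TMem alone. Gabpb1, a subunit of the ETS factor GABP, rose by 0.38 between TN mix and alone at 18 h, and Ppargc1b, a related coactivator, fell by 0.28.

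The members that rose in TN with mixing were compared with those that rose in TMem with stimulation, in comparisons that share no arrays. The lists of 29 and 45 had 19 genes in common, 65.5% of the first and 42.2% of the second. Of all 77 members 58.4% rose in TMem and 37.7% in TN with mixing, so both shares lie near those of all members and no relation of the lists is read from them. Mrps22, Mrpl50, Mrps27, Mrpl15, Mrpl45 and Mrps6 were in both, while Mrps33 and Mrpl18, called in the first, differed by 0.41 (limma adjusted p = 0.133) and 0.03 in TMem. Mrps18b rose by 1.24 in TMem and differed by 0.16 between TN mix and alone (limma adjusted p = 0.263).

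The sequence features in front of the genes were set beside the calls. Between TN mix and alone at 18 h 6.30% of all genes rose and 8.15% fell. Of 15 members with the NRF1 core 5 rose between TN alone and mix at 18 h (median 0.26), and of 53 without it 21 (median 0.37). Of 16 with the ETS core 4 rose (median 0.26), and of 52 without it 22 (median 0.36). Of 23 with a neighbour on the other strand 10 rose, and of 45 without one 16. Among 20 such neighbours that were measured and are not members themselves, 3 were higher and 1 lower in that comparison (median -0.01), while 9 of their members were higher (median 0.38). Zfp189, across 92 bases from Mrpl50, differed by 0.09. In TMem alone between 0 h and 18 h 9 neighbours rose and 5 fell (median 0.19), against 12 rises and 0 falls of their members (median 0.53). In that comparison 18.0% of all genes rose and 17.3% fell. These counts describe the genes and were not tested.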

How the data were processed

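The 30 arrays fall into 10 groups of 3, set by the cell type, by culture alone or mixed, and by the time. The deposited values are log2 levels. Per the submitters' processing notes the authors used RMA and Partek, with no version or role given in the sources used here. All values lay between 2.05 and 14.2 and array medians between 6.76 and 6.94, and they were used as deposited. RMA draws arrays toward a common distribution, so a shift shared by all genes cannot be seen. Of 35556 rows 21789 named 1 gene, 1621 named several and 12146 had no entry in the probe annotation. For 999 genes with several rows the row with the highest mean was used, which left 19938 genes. No scanner files were used, so detection calls and scan dates are unknown, and the number of arrays limits the precision.

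A model with 1 mean per group was fitted to all arrays with limma 3.58.1 (lmFit and eBayes, 20 residual degrees of freedom) in R 4.3.3, and tables and plots were made with pandas 2.3.3 and matplotlib 3.10.9. Tests of contrasts were 2-sided, p-values were adjusted over all genes by the method of Benjamini and Hochberg, and SE are those of the moderated fit. A gene was called at an adjusted p under 0.05. For 3 against 3 arrays the smallest p of an exact permutation test is 0.1, and calls therefore use spread pooled over genes and groups. The procedure was tested on simulated data. The members and lists were chosen with earlier results of these data known, and 188 of 223 listed genes matched. Of cell markers, 3 of 4 Y-linked genes and 9 of 10 B cell and antigen presentation genes matched.

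Named members were the 6 largest called rises and 4 largest falls with groups that do not overlap, up to 4 called against the majority, members with special roles, those with the widest range, those whose rows disagree, and up to 4 genes of each list. Not every such gene is printed, and members named outside this rule were chosen after their values were seen. Alternatives were centring of arrays, quantile normalization, a filter on low values (15929 genes, 77 members), the mean of all rows, a trended robust variance, array weights, a fit of only the groups compared, the replicate number as a block, and leaving out each array. Replicate numbers were taken to pair arrays where every same-numbered pair deviated together with a correlation over 0.1, which held only for TN mix and alone at 96 h (0.489, 0.312 and 0.137). Differently numbered arrays of these groups reached 0.162, and the labels state no pairing. No pairs of arrays had identical values. Promoters are those of RefSeq.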

Additional observations from a re-analysis of the deposited data

Results flagged for a closer look

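Differences between effects that passed the test are listed here with their values. The response to 18 h of stimulation alone was more positive in TMem than in TN cells for 55 members, with the widest differences in Mrps17 (1.56), Mrpl32 (1.52), Mrpl47 (1.45), Mrpl41 (1.39), Mrpl50 (1.37) and Mrps36 (1.30) on the log2 scale. The second rows of Mrpl47, Mrpl41 and Mrps36 gave 0.50, 0.80 and 1.64. The effect of mixing in TN cells was smaller at 96 h than at 18 h for 20 members, among them Mrps18c (-0.99), Mrpl20 (-0.93), Mrpl41 (-0.88, second row -0.61) and Mrpl13 (-0.85). Each of these named members lost the call without replicate 1 of TN mix at 96 h. The effect of mixing at 18 h was larger in TN than in TMem cells for 3 members, Mrpl50 (0.66), Mrpl39 (0.58) and Mrpl35 (0.56). That test was added after results were seen, and these members kept the call in 10, 9 and 13 of 20 alternatives. No explanation was tested for any of these.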

How the results depend on the processing

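Of 319 counts of called members under alternatives, 247 stayed within 1.5 times the count reported and 72 did not, 35 of them among the 169 that keep all arrays. Of 117 named pairs of member and comparison 65 were called under every alternative and 52 lost the call at least once. Of 1721 named values 0 changed sign while 245 lost the call. Most named pairs of 2 groups were picked for groups that do not overlap. Leaving out an array cannot change the sign there, so the 0 says little about how firm they are. Of 319 medians 307 moved by less than the spread. The sign of the median changed in 11, 3 of them with all arrays kept: -0.0143 for TN alone from 18 h to 96 h with centred arrays, -0.00504 for TMem against TN alone at 96 h with quantile normalization, and 0.023 for TN alone from 0 h to 96 h with array weights. The other 8 left out an array, and the medians reported there lay between -0.0907 and 0.0513. TN alone from 0 h to 96 h gave 0.0367 without replicate 1 at 0 h, mixing in TN at 96 h 0.0183 without replicate 1 of TN mix, mixing in TMem -0.014 at 18 h without replicate 1 of TMem alone and 0.00583 at 96 h without replicate 3 of TMem mix, and TMem against TN in mix at 18 h 0.024 without replicate 1 of TN mix. The effect of mixing at 96 h between cell types gave 0.0727, 0.00517 and 0.0292 without replicate 1 of TN mix, replicate 2 of TN alone and replicate 2 of TMem mix.

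In fits of only the groups compared the called members were 13 for TN alone from 0 h to 18 h, 35 from 18 h to 96 h and 9 from 0 h to 96 h, 36 for TMem alone from 18 h to 96 h, 15 for TMem against TN at 0 h, 48 at 18 h alone, 20 at 96 h alone and 1 at 96 h in mix, 3 for mixing in TN at 96 h, 33 for the difference in response and 20 for the effect of mixing at 18 h between cell types. With array weights they were 40 and 45 for TN alone from 18 h and from 0 h to 96 h, 40 and 47 for TMem alone in the same steps, 46 for TMem mix from 18 h to 96 h, 50, 25, 16 and 17 for TMem against TN at 18 h and 96 h alone and at 18 h and 96 h in mix, 52 and 23 for mixing in TN at 18 h and 96 h, 1 for mixing in TMem at 96 h, and 52, 3 and 30 for the effects of mixing compared within TN, at 96 h and at 18 h. With centred arrays they were 2 and 1 for TMem against TN at 96 h alone and in mix, and 34 and 6 for the effects of mixing compared within TN and at 18 h. With quantile normalization they were 10 for mixing in TN at 96 h, and 32 and 5 for those effects. Centred arrays split the calls for TN alone from 0 h to 96 h into 1 rise and 20 falls and array weights into 27 and 18, where 5 and 18 were reported. Array weights also gave 19 higher and 6 lower for TMem against TN at 96 h alone, and quantile normalization 4 and 5 at 18 h in mix. Shares of all genes called under the alternatives are not given, so these changes of count are not read as results about the members. The cause of these changes was not tested.

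With the replicate number as a block in the fit of all arrays, 1 member was called for the effect of mixing at 18 h between cell types, and no other count moved by over 1.5 times. TN and TMem cells of the mix groups were cultured together, so their arrays may share a culture, but the labels give no pairs. Same-numbered arrays of these groups deviated with correlations of -0.0639, 0.106 and -0.134 at 18 h and -0.338, 0.344 and -0.009 at 96 h. The part of a shared culture in their comparisons was not tested. For TN mix and alone at 96 h the numbers were taken to pair the arrays from their correlations, not from a label. There the block left 1 rise and 4 falls in the fit of all arrays and gave 8 calls in the fit of those groups, a combination chosen after seeing the data.

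Leaving out single arrays gave 12 to 16 called members for TMem alone from 18 h to 96 h, 30 to 51 for TN mix from 18 h to 96 h, 22 to 47 for TMem against TN at 0 h, 19 to 31 at 18 h alone, 2 to 5 at 96 h alone, 2 to 7 at 18 h in mix and 0 to 4 at 96 h in mix. It gave 18 to 28 for mixing in TN at 18 h, 0 to 6 at 96 h, 7 to 30 for the effect of mixing within TN, 0 to 3 for that at 18 h between cell types, 24 to 37 for TN alone from 0 h to 18 h, 18 to 28 from 0 h to 96 h, 20 to 28 for TMem mix from 18 h to 96 h and 38 to 62 for the difference in response. With 3 arrays a group the SE of members was about 0.1 to 0.3, and differences well above the SE could still go uncalled. Mrps18c, for instance, differed by 0.64 between TN mix and alone at 18 h and was not called.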
